A study of Mus musculus with 18 samples.

Results

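The genes described here encode nuclear receptors, the transcription factors that are switched by sterols, bile acids, fatty acids, drugs, retinoids and steroid or thyroid hormones, together with the coregulators that these receptors recruit. A list of 42 mouse symbols was looked up in the platform annotation, and 38 of them were measured by at least 1 probe set with a single gene symbol, among 17097 genes measured in all. Where a gene had several such probe sets, the one with the highest average over the arrays stood for it. Nr1h2, Rarb, Ppargc1a and Ncor1 were not analysed here. The 38 genes comprised 7 receptors for sterols, bile acids and foreign compounds, 3 peroxisome proliferator-activated receptors (PPARs), 5 retinoid receptors, 5 thyroid and steroid hormone receptors, 12 receptors of the HNF4, NR2, NR4, NR6, ROR and ERR groups, and 6 coregulators.

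Livers of female mice, 6 to 8 weeks old, were profiled on 18 Affymetrix arrays in 2 models in which the loss of cholesterol through the intestinal wall, a route that bypasses bile, was stimulated, in a search for regulators of reverse cholesterol transport. The chronic model consisted of NPC1L1 liver-transgenic mice (n = 5 arrays), set against wild-type mice (n = 5 arrays), both on a C57BL/6 background. The acute model consisted of mice treated with an ACAT2 antisense oligonucleotide (ASO; n = 4 arrays), set against mice given a non-targeting control ASO (n = 4 arrays), both on C57BL/6N. Both ASO groups therefore received an oligonucleotide. The promoter and species of the transgene and the dose, route and duration of ASO treatment are not stated in the labels, and neither the transgene nor the transcript targeted by the ASO was checked. The labels do not state that samples of a group are separate animals, so p-values here reflect sample-to-sample spread alone, part of which may be technical.

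Most nuclear receptors bind DNA at repeats of a short hexamer, often as heterodimers with a retinoid X receptor (RXR), and change transcription by exchanging corepressors for coactivators when a ligand binds. In liver, LXR (Nr1h3) senses oxysterols, FXR (Nr1h4) senses bile acids and acts partly through the corepressor SHP (Nr0b2), CAR (Nr1i3) and PXR (Nr1i2) respond to drugs and other foreign compounds, and PPARα (Ppara) responds to fatty acids. HNF4α (Hnf4a) maintains hepatocyte gene expression, and coactivators of the p160 family (Ncoa1, Ncoa2, Ncoa3) link many of these receptors to chromatin-modifying enzymes.

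All values are log2 intensities, and a difference of 1 is a 2-fold change. Levels were compared only within a model, because array medians were 4.61 to 4.65 for the transgenic model but 4.38 to 4.40 for the ASO model. Median correlations of an array with the others of its group were lowest for wild type 2 (0.989) and control ASO 4 (0.990). Hepatocyte markers were at the top of the scale, the 7 measured ones averaging between 12.8 and 13.6. Of the 38 receptor and coregulator genes, 32 averaged over 4.74, the upper bound of the 40% of genes with the lowest signal. The 6 below it were Nr2c2, Vdr, Ppard, Hnf4g, Esr1 and Nr2f1, and their small differences have the least signal behind them. The median SD between arrays of a group was 0.123 for the 38 genes and 0.111 for all genes.

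In transgenic liver no member of the set passed the test, and the levels of the transgenic and wild-type arrays overlapped for each of them. Changes ran from -0.16 for Rora to 0.29 for Pparg, with a median of -0.03, against 0.01 over all genes. Of the 38 genes, 15 lay above 0 and 23 below, so 39.5% were above 0, against 52.6% of all genes. With limma, 0 of 38 genes reached a Benjamini-Hochberg adjusted p under 0.05 over all genes, where 0.228% of all genes did, and 4 of 38 (10.5%) had an unadjusted p under 0.05, where 10.9% of all genes did. The number of genes whose groups did not overlap was 0 of 38, against 2.22% of all genes. Since RNA of whole liver was measured, fewer cells of a type and less RNA per cell cannot be told apart in any value given here. For 36 of the 38 genes the 95% interval of the change stayed within 1.5-fold in both directions. The exceptions were Nr0b2 and Pparg, whose arrays varied most.

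After ACAT2 ASO, 1 member rose, the coactivator gene Ncoa2. Changes ran from -0.57 for Nr1i3 to 0.33 for Ncoa2, with a median of -0.06, against -0.00056 over all genes, and 14 of the 38 genes (36.8%) lay above 0, against 49.7% of all genes. The median moved to 0.00, with 20 genes above 0, when control ASO 3 was left out. With limma, 1 of 38 genes (2.63%) had an adjusted p under 0.05, where 0.597% of all genes did, and 4 of 38 (10.5%) had an unadjusted p under 0.05, where 13.3% of all genes did. Groups did not overlap for Ncoa2 and Ppard, or 5.26% of the 38 genes, against 9.05% of all genes. The 95% interval stayed within 1.5-fold for 35 genes, the exceptions being Nr1i3, Nr0b2 and Pparg. No member reached a 2-fold change in either model (0 of 38).

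**Figure D1:**
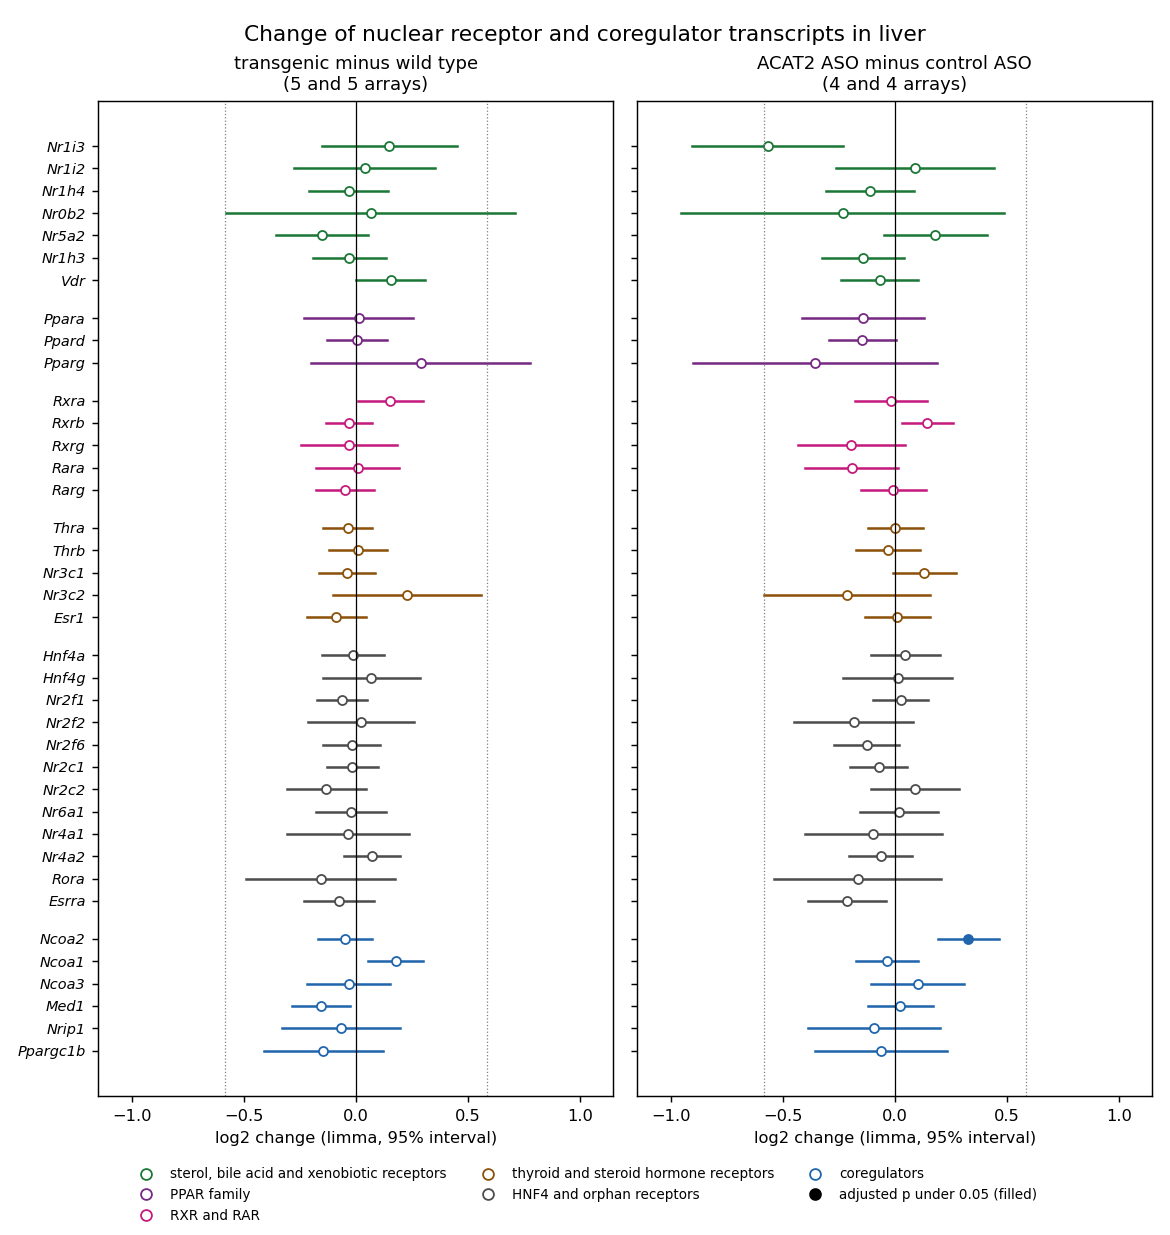
Log2 change of each of the 38 nuclear receptor and coregulator genes in transgenic against wild-type liver (left) and in ACAT2 ASO against control ASO liver (right), with 95% intervals from limma, grouped by role. Most intervals span 0, and the ASO changes of Ncoa2 (0.33) and Nr1i3 (-0.57) lie farthest from it among the genes whose intervals do not.

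Ncoa2 encodes a p160 coactivator (also called TIF2, GRIP1 or SRC-2) that binds ligand-bound receptors. It read 8.62, 8.62, 8.66 and 8.77 on the ACAT2 ASO arrays and 8.26, 8.32, 8.36 and 8.42 on the control ASO arrays. All 4 ACAT2 ASO arrays lay above all 4 control ASO arrays. The ACAT2 ASO mean was 8.67 ± 0.07 and the control ASO mean 8.34 ± 0.07 (SD, n = 4 each). Ncoa2 thus rose by 0.33 ± 0.06 on the log2 scale (SE, limma adjusted p = 0.0267). In the transgenic model Ncoa2 read 8.39, 8.22, 8.45, 8.21 and 8.22 on transgenic arrays and 8.41, 8.41, 8.40, 8.28 and 8.23 on wild-type arrays. Those groups overlapped, with a change of -0.05 ± 0.06 (SE, limma adjusted p = 0.831).

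The effect on Ncoa2 differed between the models, by -0.38 ± 0.09 for the transgenic minus the ASO change (SE, limma adjusted p = 0.0452). It was the 1 member called in that comparison, which called 1.07% of all genes. An unadjusted p under 0.05 was reached there by 5 of 38 genes (13.2%), where 15.4% of all genes reached it, and the 95% interval of the difference stayed within 1.5-fold for 33 genes. The other 4 were Nr1i3 (0.72, adjusted p = 0.108), Rxrb (-0.18, adjusted p = 0.247), Ncoa1 (0.21, adjusted p = 0.251) and Nr5a2 (-0.33, adjusted p = 0.286), all by limma.

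The Ncoa2 call lay close to the threshold. Its other 3 probe sets averaged 4.60, 4.45 and 4.38, in the range of the lowest 40% of genes, and differed by 0.17, -0.08 and 0.15 after ACAT2 ASO. With the mean of all 4 probe sets the change was 0.14 (limma adjusted p = 0.199). Leaving out 1 array at a time gave changes between 0.29 and 0.35 with adjusted p between 0.0263 and 0.0969, and the call was kept in 2 of 8 such fits, those without ACAT2 ASO 2 and without control ASO 4. The call of the difference between the models was kept in 5 of 18 such fits, with adjusted p between 0.0300 and 0.101.

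Nr1i3, which encodes CAR, had the largest change of the set. It read 8.71, 8.74, 9.17 and 8.93 on the ACAT2 ASO arrays and 9.53, 9.64, 9.73 and 8.93 on the control ASO arrays. Control ASO arrays 1 to 3 lay above every ACAT2 ASO array, and control ASO 4 lay among them. The change was -0.57 ± 0.16 (SE), with a limma p of 0.00236 before adjustment and 0.111 after it. Without control ASO 4, which also stood apart over all probe sets, it was -0.74 (limma adjusted p = 0.0169), and with array weights, which let limma count less consistent arrays less, it was -0.63 (adjusted p = 0.0227). Leaving out each array of the model in turn gave changes between -0.74 and -0.48, with adjusted p between 0.0169 and 0.254. The transgenic arrays read 8.61, 8.91, 9.04, 8.89 and 9.0 and the wild-type arrays 8.65, 8.42, 8.77, 9.01 and 8.87. Those 2 groups overlapped, at a change of 0.15 ± 0.14 (SE, limma adjusted p = 0.779).

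**Figure D2:**
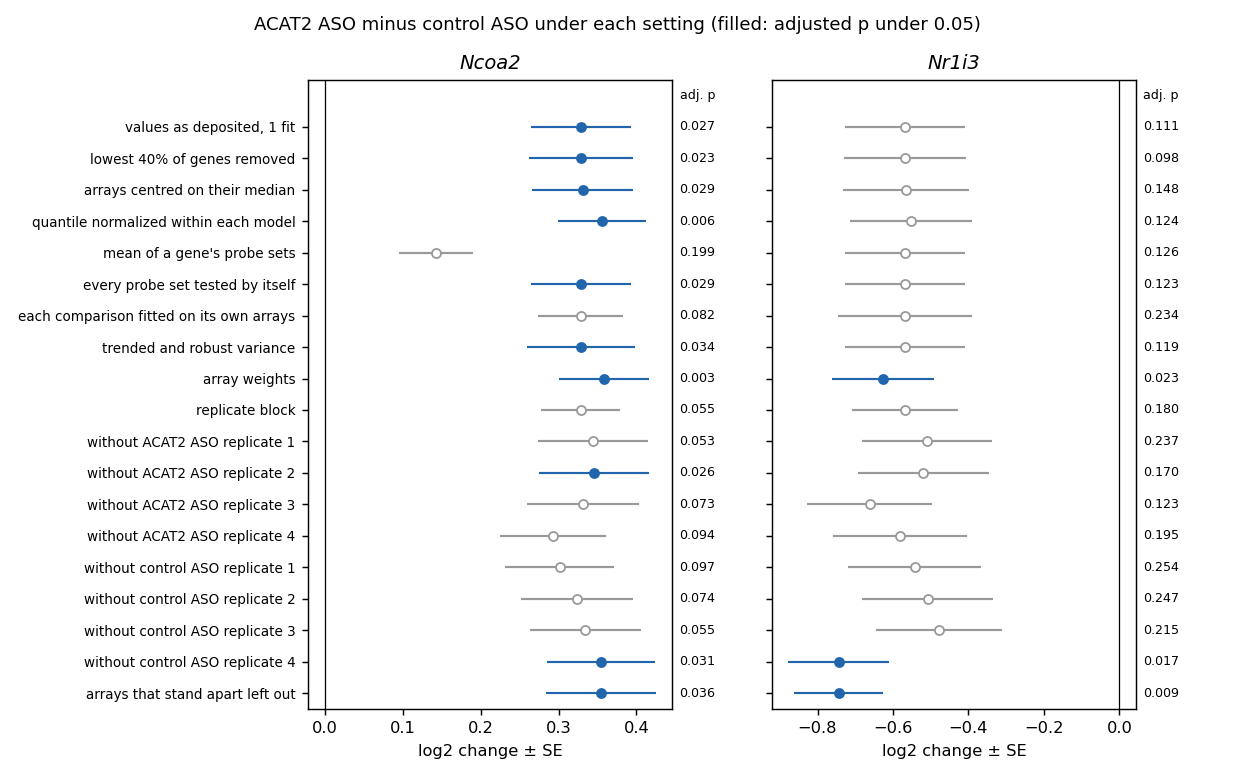
Log2 change of Ncoa2 and Nr1i3 in ACAT2 ASO against control ASO liver under each way of processing the arrays and with each array left out, with standard errors and limma adjusted p. Ncoa2 stayed between 0.14 and 0.36 and Nr1i3 between -0.74 and -0.48, and each crossed the threshold of 0.05 in some settings.

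Of the other receptors for sterols, bile acids and foreign compounds, Nr1h4 (FXR) read 9.81, 9.61, 9.90 and 9.78 on ACAT2 ASO arrays and 9.75, 9.97, 9.99 and 9.83 on control ASO arrays, a change of -0.11. Nr1h3 (LXRα) read 7.75, 7.48, 7.59 and 7.46 on ACAT2 ASO arrays and 7.67, 7.67, 7.72 and 7.80 on control ASO arrays, a change of -0.14. Both pairs of groups overlapped, and both genes differed by -0.03 between transgenic and wild-type liver. Nr1i2 (PXR) differed by 0.04 in transgenic liver and 0.09 in the ASO model. Its other probe set, averaging 7.25, differed by -0.03 and -0.01, so both signs depended on the probe set. Wild type 2 read 7.45 for Nr1i2, below all other wild-type arrays, which read 8.16 to 8.39.

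Nr0b2, which encodes the corepressor SHP and is induced by FXR, varied more between arrays of a group than 98.4% of all genes. It read 7.59, 7.77, 8.36 and 7.85 on ACAT2 ASO arrays and 8.76, 7.56, 9.10 and 7.08 on control ASO arrays. The control ASO arrays alone spanned more than the ACAT2 ASO arrays on both sides, and the change was -0.23 with a 95% interval from -0.95 to 0.49. The transgenic arrays read 8.65, 8.40, 7.85, 7.78 and 7.98, against 8.06, 8.00, 8.41, 7.65 and 8.20 in wild type, a change of 0.07 with an interval from -0.58 to 0.71. Neither interval excludes a change of 1.5-fold.

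Nr5a2 (LRH-1), a receptor for phospholipids that acts on bile acid synthesis genes, differed by -0.15 ± 0.10 in transgenic liver and, with ACAT2 ASO, by 0.18 ± 0.11 (SE). It read 8.39, 8.60, 8.58, 8.71 and 8.58 on transgenic arrays and 8.73, 8.59, 8.97, 8.59 and 8.72 on wild-type arrays. ACAT2 ASO arrays read 7.95, 8.34, 8.44 and 8.08, and control ASO arrays 7.85, 8.18, 7.95 and 8.10. The groups overlapped in both models.

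Vdr, the vitamin D receptor gene, is among the 6 genes of low signal. It read 4.53, 5.02, 4.70, 4.76 and 4.85 on transgenic arrays and 4.64, 4.66, 4.59, 4.48 and 4.72 on wild-type arrays. The highest values were transgenic, but transgenic 1 lay below 4 of the 5 wild-type arrays, and the change of 0.16 ± 0.07 (SE) did not pass the test (limma adjusted p = 0.458). Its other probe set differed by 0.08. After ACAT2 ASO the change was -0.07.

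**Figure D3:**
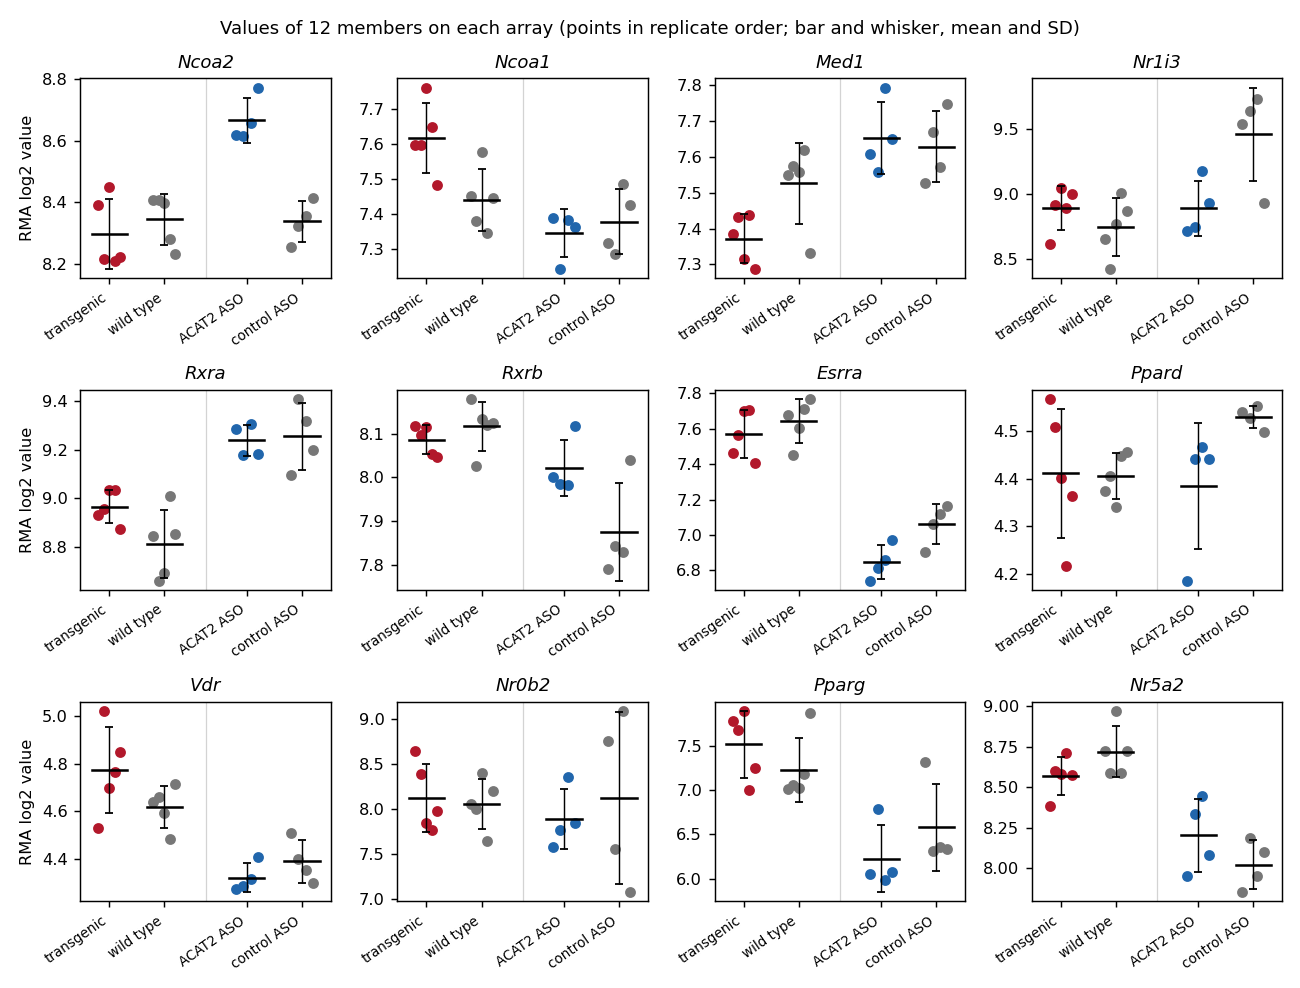
Log2 value on every array for 12 of the genes, with transgenic and wild-type arrays on the left and ACAT2 ASO and control ASO arrays on the right of each panel, bars at the group means and whiskers of 1 SD. ACAT2 ASO arrays lie above control ASO arrays for Ncoa2 and below them for Ppard, and the groups overlap in the other panels.

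The PPAR genes lay above 0 in transgenic liver (3 of 3) and below 0 after ACAT2 ASO (3 of 3), but none of the 6 changes passed the test. The transgenic sign depended on the probe set for Ppara and Ppard, which both changed by 0.01. Their other probe sets lay below 0 there (Ppara -0.03 and -0.0016, Ppard -0.05), and also after ACAT2 ASO. Ppara, the target of fibrate drugs and the main PPAR of hepatocytes, read 9.91, 10.15, 10.25 and 10.31 on ACAT2 ASO arrays and 10.45, 10.34, 10.44 and 9.95 on control ASO arrays, a change of -0.14. Control ASO 4 again lay apart from the other 3 control arrays. In transgenic liver Ppara changed by 0.01 with a 95% interval from -0.23 to 0.26.

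Pparg, the adipogenic member that is also present in fatty liver, varied more than 96.9% of all genes. It read 7.78, 7.67, 7.89, 7.0 and 7.25 on transgenic arrays and 7.01, 7.06, 7.03, 7.18 and 7.87 on wild-type arrays. In each group some arrays lay near 7 and some near the top of the range. ACAT2 ASO arrays read 6.05, 6.79, 5.98 and 6.08, and control ASO arrays 7.31, 6.31, 6.36 and 6.34. A single array stood above the rest in wild type, in the ACAT2 ASO group and in the control ASO group, and the changes were 0.29 ± 0.23 in the transgenic and -0.35 ± 0.26 in the ASO model (SE).

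Ppard, the widely expressed PPARδ gene, read 4.19, 4.44, 4.47 and 4.44 on ACAT2 ASO arrays and 4.54, 4.53, 4.55 and 4.50 on control ASO arrays. All ACAT2 ASO values were lower than all control ASO values, but both groups lay in the range of the lowest 40% of genes, and the change of -0.14 ± 0.07 (SE) did not pass the test (limma adjusted p = 0.388). Without ACAT2 ASO 1 it was -0.08. In the transgenic model the change was 0.01.

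Among the retinoid receptors, Rxra encodes RXRα, the shared partner of LXR, FXR, CAR, PXR and the PPARs. It read 8.93, 8.96, 9.03, 9.03 and 8.87 on transgenic arrays and 8.84, 8.66, 8.69, 9.01 and 8.85 on wild-type arrays. Every transgenic array lay above 4 of the 5 wild-type arrays, and the change was 0.15 ± 0.07 (SE, limma adjusted p = 0.417). A further 2 probe sets of Rxra gave 0.00 and -0.04. After ACAT2 ASO the change of Rxra was -0.02, with a 95% interval from -0.18 to 0.14.

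Rxrb, the gene of RXRβ, varied less between arrays than most genes, with 11.0% of all genes varying less. It read 8.00, 7.99, 7.98 and 8.12 on ACAT2 ASO arrays and 7.79, 7.84, 7.83 and 8.04 on control ASO arrays. Control ASO 4 lay above 3 of the 4 ACAT2 ASO arrays, and the other control arrays lay below all of them. The change was 0.15 ± 0.05 (SE, limma adjusted p = 0.238), and 0.19 with array weights (adjusted p = 0.0453). In transgenic liver it was -0.03. Rxrg, Rara and Rarg differed by between -0.05 and 0.01 in transgenic liver and, with ACAT2 ASO, by -0.19, -0.19 and -0.01.

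Half-sites of the receptor hexamer were searched for in promoters from 250 bases before to 50 bases after each start (RefSeq, build GRCm38.p6), as AGGTCA on either strand, which reads TGACCT on the other. They were present in 10 of 49 windows of the 32 members with a window (20.4%), against 16.3% of all 32851 windows. The matches of Rxra, Nr5a2 and Pparg are shown, Rxra because it encodes the heterodimer partner. Nr5a2 and Pparg were picked because their changes had opposite signs in the 2 models, as did those of some other members with a match. The difference between the models was not called for Nr5a2 or Pparg (limma adjusted p = 0.286 and 0.397). The matches are written in the direction of transcription with the hexamer in capitals.
Rxra, chr2:27709042-27709341, plus strand, hexamer 87 bases before the start: gaaatgggtgTGACCTgagtaatggt
Rxra, same window, 48 bases before the start: gtggcaggaaAGGTCAgtcactctct
Nr5a2, chr1:136960399-136960698, minus strand, 64 bases before the start: ggtttacagcAGGTCAtacatgctgg
Pparg, chr6:115360894-115361193, plus strand, 28 bases before the start: ccgccgcctcAGGTCAgagtcgcccc
Pparg, chr6:115362099-115362398, plus strand, 9 bases before the start: ggacgcgaggAGGTCAagaaggggcc
The other 6 members with a match were Nr1h4, Nr6a1, Rara, Rarg, Rxrg and Thrb. The window of Nr1i3 held no match. A match describes these letters and was not set against binding data.

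None of the 5 thyroid and steroid hormone receptor genes passed the test in either model. Thra and Thrb, the thyroid hormone receptor genes, differed by -0.04 and 0.01 in transgenic liver and, with ACAT2 ASO, by 0.00 and -0.03, and all 4 of their 95% intervals lay within -0.17 and 0.14. Nr3c1, the glucocorticoid receptor gene, read 8.35, 8.53, 8.48 and 8.46 on ACAT2 ASO arrays and 8.25, 8.34, 8.35 and 8.36 on control ASO arrays. All control ASO arrays except control ASO 4 lay below all ACAT2 ASO arrays, and the change of 0.13 ± 0.07 (SE) did not pass the test (limma adjusted p = 0.414). Another Nr3c1 probe set of similar level differed by -0.04. Nr3c2, the mineralocorticoid receptor gene, differed by 0.23 ± 0.16 in transgenic liver and, with ACAT2 ASO, by -0.21 ± 0.18 (SE). Wild type 1, at 5.67, lay below the other wild-type arrays for Nr3c2, which read 6.34 to 6.57. Esr1, the estrogen receptor α gene, was in the low range and differed by -0.09 and 0.01.

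Of the HNF4 and orphan receptor genes, 3 of 12 lay above 0 in transgenic liver and 5 of 12 after ACAT2 ASO. Hnf4a read 10.78, 10.66, 10.70, 10.72 and 10.75 on transgenic arrays and 10.84, 10.68, 10.72, 10.70 and 10.73 on wild-type arrays. On this probe set the groups were almost superimposed, with a change of -0.01 and a 95% interval from -0.15 to 0.12. Its other 3 probe sets, averaging 10.2, 7.92 and 6.28, differed by -0.19, -0.18 and -0.07 there, all below 0 with limma p of at least 0.0883 before adjustment. After ACAT2 ASO Hnf4a differed by 0.05, with an interval from -0.11 to 0.20, and its other 3 probe sets by 0.11, -0.03 and -0.11.

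Esrra, which encodes ERRα, a regulator of mitochondrial genes, read 6.74, 6.81, 6.86 and 6.97 on ACAT2 ASO arrays and 6.90, 7.06, 7.12 and 7.16 on control ASO arrays. ACAT2 ASO arrays 1 to 3 lay below every control ASO array. The change was -0.21 ± 0.08 (SE), with a limma p of 0.019 before adjustment and 0.258 after it, and in transgenic liver it was -0.07. Rora, a receptor that acts on circadian clock genes, differed by -0.16 and -0.17 in the transgenic and ASO models. Of 2 further Rora probe sets of similar level, 1 differed by -0.19 in both models, and the other by -0.19 in transgenic liver and 0.11 with ACAT2 ASO, so the ASO sign depended on the probe set.

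The COUP-TF genes Nr2f1, Nr2f2 and Nr2f6 differed by -0.06, 0.02 and -0.02 in transgenic liver and, with ACAT2 ASO, by 0.03, -0.18 and -0.13. The testicular receptor genes Nr2c1 and Nr2c2 differed by -0.02 and -0.13 in transgenic liver and, with ACAT2 ASO, by -0.07 and 0.09. The immediate early receptor genes Nr4a1 and Nr4a2 differed by -0.04 and 0.07 in transgenic liver and, with ACAT2 ASO, by -0.10 and -0.06. Hnf4g and Nr6a1 differed by 0.07 and -0.02 in transgenic liver and, with ACAT2 ASO, by 0.01 and 0.02. Another Nr6a1 probe set, averaging 4.08 in the low range, differed by 0.28 in transgenic liver. Its limma p was 0.00264 before adjustment over all single-symbol probe sets and 0.200 after it. The remaining Nr6a1 probe sets differed there by 0.0015, 0.0016 and 0.05. None of these 9 genes passed the test in either model.

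Among the coregulators other than Ncoa2, Ncoa1 (SRC-1) read 7.60, 7.60, 7.76, 7.65 and 7.48 on transgenic arrays and 7.45, 7.38, 7.58, 7.34 and 7.45 on wild-type arrays. Wild type 3 lay among the transgenic arrays, and the other 4 wild-type arrays lay below all of them. The change was 0.18 ± 0.06 (SE), with a limma p of 0.0074 before adjustment and 0.251 after it. The other Ncoa1 probe set also differed by 0.18. After ACAT2 ASO the change of Ncoa1 was -0.03. Ncoa3 (SRC-3) differed by -0.03 (transgenic model) and 0.10 (ASO model), so neither of the related p160 genes was called in either model.

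Med1, the Mediator subunit that docks on ligand-bound receptors, read 7.38, 7.43, 7.31, 7.44 and 7.29 on transgenic arrays and 7.55, 7.57, 7.56, 7.62 and 7.33 on wild-type arrays. Wild type 5 lay among the transgenic arrays and below the other 4 wild-type arrays. The change was -0.16 ± 0.06 (SE), with a limma p of 0.022 before adjustment and 0.355 after it. Its other 4 probe sets differed by -0.04, 0.14, -0.17 and -0.05, so their signs were mixed. Nrip1, the corepressor RIP140, differed by -0.07 and -0.09, and Ppargc1b, the coactivator PGC-1β, by -0.14 and -0.06 in the transgenic and ASO models.

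In all, the 38 genes had 88 probe sets, 16 genes having 1 and 22 having several. Of the 50 probe sets not used to represent a gene, 29 had the sign of the chosen one in transgenic liver and 27 in ASO-treated liver, and 0 were called in either.

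Known targets of these receptors, other receptors and other coregulators were taken from 11 lists, with 134 of 155 genes measured. The lists were chosen with earlier results of these data known, so the shares called are not an independent comparison with all genes. In transgenic liver 1 of the 134 (0.746%) was called, against 0.228% of all genes. It was Dio1, the deiodinase that activates thyroid hormone and is induced by thyroid hormone receptors. After ACAT2 ASO 2 of the 134 (1.49%) were called, against 0.597% of all genes: the corepressor gene Tle1, which was higher, and the retinoid-responsive chemerin gene Rarres2, which was lower. The effects on 2 of the 134 genes (1.49%), Dio1 and Baat, were called different between the models, against 1.07% of all genes. An unadjusted p under 0.05 was reached by 10 of 134 genes (7.46%) in transgenic liver and, with ACAT2 ASO, by 15 (11.2%), below the shares over all genes given above.

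Dio1 read 9.58, 9.73, 10.54, 9.87 and 9.64 on transgenic arrays and 8.68, 8.22, 8.57, 8.14 and 9.03 on wild-type arrays, all 5 transgenic values being above all 5 wild-type values. It rose by 1.34 ± 0.21 (SE, limma adjusted p = 0.00726), while Thra and Thrb differed by -0.04 and 0.01. The call was kept in 10 of 10 fits without 1 array and lost with the replicate number as a block (adjusted p = 0.0734). Of the 10 thyroid hormone receptor targets, 8 lay above 0 in transgenic liver, with a median of 0.16, and Me1, the malic enzyme gene, differed by 0.43 (limma adjusted p = 0.409). After ACAT2 ASO 5 of 10 lay above 0, Dio1 differed by -0.31 and Hr, a corepressor gene, by -0.09. The effect on Dio1 differed between the models by 1.66 (limma adjusted p = 0.0170), a call kept in 18 of 18 fits without 1 array. It was lost with the replicate number as a block and without wild type 2 and control ASO 4 together, with adjusted p up to 0.0837.

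CAR and PXR targets, genes of drug metabolism and haem synthesis, had 15 of 18 listed genes measured. After ACAT2 ASO 8 of the 15 lay above 0, with a median of 0.01, beside the lower values of Nr1i3. Cyp3a11, a cytochrome P450 gene, differed by 0.17 (limma adjusted p = 0.155) and Aldh1a7, an aldehyde dehydrogenase gene, by -0.60 (limma adjusted p = 0.346). In transgenic liver 11 of 15 lay above 0, with a median of 0.05. The smallest p belonged to Alas1, the rate-limiting enzyme of haem synthesis (0.54, limma adjusted p = 0.251), and the carboxylesterase gene Ces2a (0.40, adjusted p = 0.291).

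FXR targets, which act in bile acid synthesis, conjugation and transport and in other roles, had 13 of 14 genes measured. The list was not split by whether FXR raises or lowers a gene. Its counts and medians therefore do not measure FXR activity. After ACAT2 ASO 3 of the 13 lay above 0, with a median of -0.15, and 4 of the 13 had all ACAT2 ASO arrays below all control ASO arrays, where groups did not overlap for 9.05% of all genes in either direction. None was called in this comparison. Apoc2, an apolipoprotein gene, differed by -0.31 (limma adjusted p = 0.176) and Baat, the enzyme that conjugates bile acids to amino acids, by -0.20 (limma adjusted p = 0.204). In transgenic liver 6 of 13 lay above 0, with a median of -0.01. There Baat differed by 0.28 (limma adjusted p = 0.0813), all transgenic arrays being above all wild-type arrays, and Cyp7a1, the rate-limiting enzyme of bile acid synthesis, by 0.58 (limma adjusted p = 0.274). The effect on Baat differed between the models, by 0.48 for the transgenic minus the ASO change (limma adjusted p = 0.0245). That call was kept in 16 of 18 fits without 1 array, with adjusted p up to 0.0552, and lost without ACAT2 ASO 1 or control ASO 2. It was also lost with the mean of probe sets, with the replicate number as a block, and without wild type 2 and control ASO 4 together, with adjusted p up to 0.0866.

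LXR targets, genes of cholesterol efflux and lipogenesis, had 12 of 14 genes measured and none called. In transgenic liver 9 of 12 lay above 0, with a median of 0.06, and Pltp, the phospholipid transfer protein gene, differed by -0.58 with all transgenic arrays below all wild-type arrays (limma adjusted p = 0.112). Cyp7a1, which is also on this list, lay at 0.58, and the fatty acid uptake gene Cd36, named after its values were seen, lay at 0.42 with all transgenic arrays above all wild-type arrays (limma adjusted p = 0.549). Groups did not overlap for these 2 of 12, Pltp and Cd36, against 2.22% of all genes. After ACAT2 ASO 8 of 12 lay above 0, with a median of 0.07. The lipogenic factor gene Mlxipl differed by 0.25 (limma adjusted p = 0.305) and the sterol transporter gene Abcg8 by 0.45 (adjusted p = 0.311).

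PPARα targets, genes of fatty acid oxidation and fasting, had 14 of 18 genes measured and none called. In transgenic liver 12 of 14 lay above 0, with a median of 0.09. The smallest p belonged to the hormone gene Fgf21 (0.21, limma adjusted p = 0.465) and the lipase inhibitor gene Angptl4 (0.49, adjusted p = 0.521). After ACAT2 ASO 8 of 14 lay above 0. Cpt1a, which carries fatty acids into mitochondria, differed by -0.31 with all ACAT2 ASO arrays below all control ASO arrays (limma adjusted p = 0.101), and Fgf21 differed by -0.24 (adjusted p = 0.358).

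Of 8 measured retinoic acid receptor targets, 2 lay above 0 after ACAT2 ASO. Rarres2 read 11.10, 11.41, 11.13 and 11.14 on ACAT2 ASO arrays and 11.74, 11.60, 11.54 and 11.57 on control ASO arrays, and it fell by 0.41 on the log2 scale (limma adjusted p = 0.0277). That call was kept in 3 of 8 fits without 1 array, with adjusted p up to 0.0990, those without ACAT2 ASO 2, control ASO 3 and control ASO 4. It was also lost with the mean of probe sets, on the arrays of the ASO model alone, with the replicate number as a block, and without wild type 2 and control ASO 4 together, with adjusted p up to 0.166. In transgenic liver 3 of 8 lay above 0, with Lrat, the enzyme that forms retinyl esters, at -0.24 and the retinal reductase gene Dhrs3 at 0.21 (limma adjusted p = 0.228 and 0.240). Glucocorticoid receptor targets, 13 measured, had medians of 0.12 in transgenic liver and 0.16 after ACAT2 ASO. The smallest p in that list belonged to Angptl4 (0.49) and G6pc (0.89) in transgenic liver and to Pck1 (-0.17) and Igfbp1 (0.41) after ACAT2 ASO, with adjusted p between 0.521 and 0.767. The Pck1 probe set averaged 3.65, in the range of the lowest 40% of genes. Targets of ROR and REV-ERB, 10 measured, had medians of 0.02 in both models, and HNF4A and NR5A2 targets, 13 measured, had medians of -0.01 in transgenic liver and -0.05 after ACAT2 ASO. The ROR and REV-ERB changes ran from -0.15 to 0.07 in transgenic liver and from -0.36 to 0.11 after ACAT2 ASO. There 1 of the 10 had groups without overlap, against 9.05% of all genes. Those of the HNF4A and NR5A2 list ran from -0.19 to 0.58 and from -0.39 to 0.11. No gene of these 2 lists was called in either model.

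Among 21 measured coregulator genes outside the set, 10 lay above 0 in transgenic liver and 13 after ACAT2 ASO. Tle1, a Groucho corepressor gene, read 9.0, 8.75, 9.15 and 8.55 on ACAT2 ASO arrays and 8.20, 8.34, 8.09 and 8.39 on control ASO arrays, and it rose by 0.61 (limma adjusted p = 0.0100). The call was kept in 8 of 8 fits without 1 array and lost on the arrays of the ASO model alone and with the replicate number as a block, with adjusted p up to 0.137. In transgenic liver Tle1 read 8.32, 8.33, 8.20, 8.49 and 8.33, against 7.94, 8.08, 8.04, 8.09 and 8.10 in wild type. The transgenic arrays were all higher there too, at a change of 0.28 that did not pass the test (limma adjusted p = 0.241). Of 10 measured receptor genes outside the set, none was called, with Pgr, the progesterone receptor gene, whose mean of 3.86 was in the low range, at 0.18 after ACAT2 ASO (limma adjusted p = 0.155) and Esrrg at 0.13 in transgenic liver (adjusted p = 0.523).

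**Figure D4:**
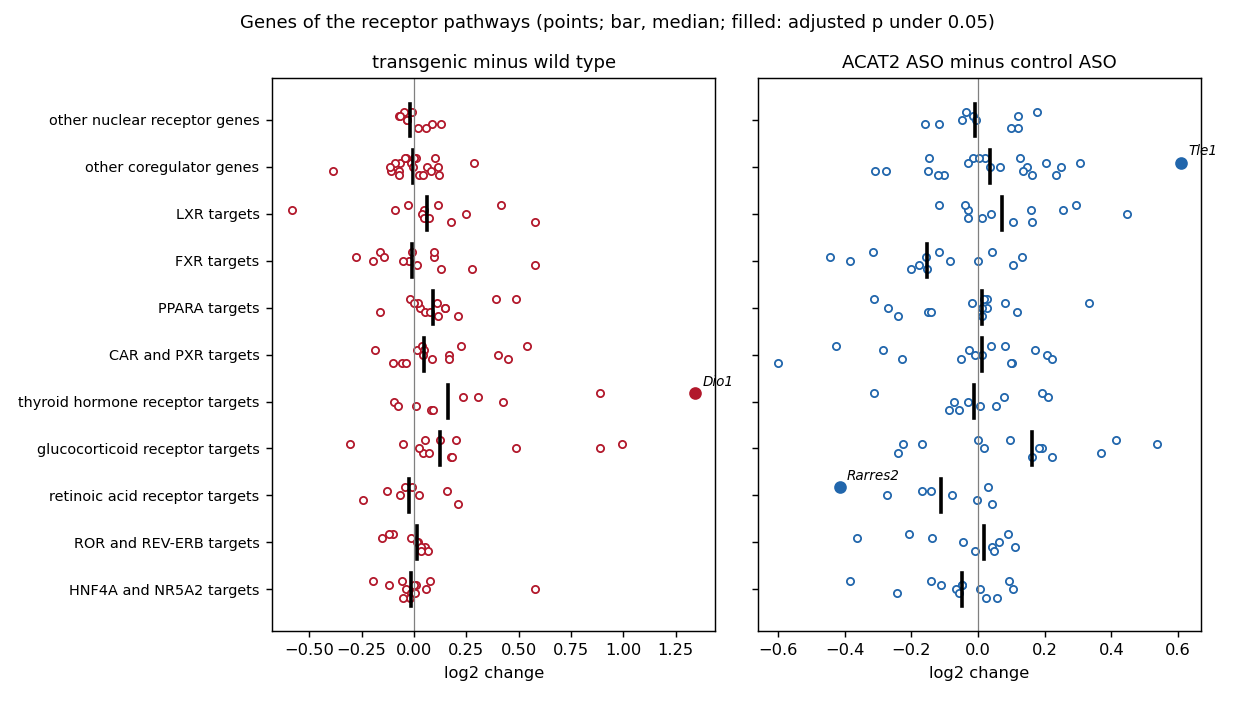
Log2 change of each measured gene in the 11 lists of receptor targets, other receptors and other coregulators, in transgenic against wild-type liver (left) and ACAT2 ASO against control ASO liver (right), with list medians as bars and called genes filled. Dio1 (1.34) is the 1 called gene in transgenic liver, and Tle1 (0.61) and Rarres2 (-0.41) are the 2 after ACAT2 ASO.

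Markers of other liver cells were examined beside these values. Of 9 marker lists, those of macrophages and cholangiocytes are described here, and no marker of any list was called in either model. After ACAT2 ASO all 7 Kupffer cell and macrophage markers lay above 0, with a median of 0.41, and their summed log2 level ranged from 52.9 to 65.6 on ACAT2 ASO arrays and from 53.2 to 62.8 on control ASO arrays. Vsig4 differed by 0.55 (limma adjusted p = 0.313). The 4 measured cholangiocyte markers summed to between 17.3 and 17.6 on ACAT2 ASO arrays and to between 17.6 and 20.8 on control ASO arrays, with Krt19 at -1.12 (limma adjusted p = 0.170). Krt19 had the largest fall of these 4 markers, whose median change was -0.12, with 1 of 4 above 0. In transgenic liver their median was -0.05, also with 1 of 4 above 0. Of these 4 markers, 3 averaged in the range of the lowest 40% of genes, so the sums rest largely on low signal. In transgenic liver 4 of 7 macrophage markers lay above 0, with sums from 58.2 to 64.0 on transgenic arrays and from 56.7 to 68.0 on wild-type arrays. RMA values have no zero, so absence of a marker could not be read. The part of these cells in the changes of Ncoa2, Nr1i3 and the other genes was not tested.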

How the data were processed

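Hepatic RNA was measured on 18 Affymetrix MG-430 PM arrays. Values were deposited on a log2 scale, as summarised by the authors with RMA according to the submitters' processing notes, which name no version. Of 45141 probe sets, 104 controls were left out, 28898 had 1 gene symbol, 551 several and 15588 none. Entrez numbers linked 28689 of the 28898 single-symbol probe sets to the GRCm38.p6 gene table, and 0 symbols needed updating. The probe set with the highest mean represented each gene, without a filter on low values.

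Differences were tested with limma 3.58.1 (R 4.3.3, lmFit and eBayes, group means over all 18 arrays, two-sided), with Benjamini-Hochberg adjustment over 17097 genes and calls at adjusted p under 0.05. The contrasts tested were NPC1L1 transgenic against wild type, ACAT2 against control ASO, and the first effect minus the second. Standard errors and 95% intervals come from the moderated variance. The number of arrays limits the precision of each value, and 0 pairs of arrays were identical.

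The members and lists were chosen with earlier results of these data known. All members are named. Values per array are given for members that were called, had an unadjusted p under 0.05 or had groups without overlap, and for others chosen after the values were seen. Of most lists, called genes or else up to 2 with the smallest p per comparison are named. For the ROR and REV-ERB list and the HNF4A and NR5A2 list, medians and ranges are given instead. Promoter windows are from the RefSeq table of GRCm38.p6.

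On data simulated with 200 changed genes, 61 of 67 genes with a log2 shift of 0.5 and 67 of 67 with a shift of 1 were found in the transgenic comparison, and 51 of 67 and 64 of 67 in the ASO comparison. Calls among 16897 unchanged genes numbered 10 and 4. Noise was normal and independent between genes and arrays, with each gene's pooled SD, so no simulated array stood apart. Shifts under 0.5 were not tried, and every member change except that of Nr1i3 after ACAT2 ASO was smaller. The simulation therefore does not show how often changes of the members' size are found. Alternatives covered a low filter, centring, quantile normalization, other uses of probe sets, own arrays, variance, array weights, a replicate block and leaving out arrays.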

Additional observations from a re-analysis of the deposited data

Results flagged for a closer look

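In 16 of 152 groups of arrays, counting each of the 38 genes in each of the 4 groups, the highest or lowest array lay far from the others by Dixon's criterion, which about 1 in 20 groups of independent, normally distributed values meet. In wild type these were array 2 for Nr1i2 (7.45, others 8.16 to 8.39), array 1 for Nr3c2 (5.67, others 6.34 to 6.57) and Esr1 (4.05), array 3 for Nr3c1 (8.76), and array 5 for Pparg (7.87, others 7.01 to 7.18), Nr2f6 (8.37), Hnf4g (4.24) and Med1 (7.33). Transgenic arrays set apart in this way were array 3 for Nr3c1 (8.71), array 4 for Rara (5.45) and array 2 for Rarg (5.92). In the ACAT2 ASO group they were array 1 for Ppard (4.19), array 2 for Pparg (6.79) and Hnf4g (3.48), and array 4 for Rxrb (8.12). In the control ASO group it was array 1 for Pparg (7.31, others 6.31 to 6.36). Wild type 5 accounted for 4 of the 16. Genes on the same arrays are not independent, and the share flagged over all genes was not computed. The count is therefore not a result about these 38 genes.

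The change of Ncoa2 differed between the models, at -0.05 in transgenic liver and 0.33 after ACAT2 ASO, a difference of -0.38 (limma adjusted p = 0.0452) that was called in 5 of 18 fits with 1 array left out. Among the receptor targets, the effects on Dio1, at 1.34 in transgenic liver and -0.31 after ACAT2 ASO, differed by 1.66 (adjusted p = 0.0170), and those on Baat, at 0.28 and -0.20, by 0.48 (adjusted p = 0.0245). The models also differ in strain and array medians, and the part of these was not tested.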

How the results depend on the processing

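In transgenic liver 0 members were called under every alternative run. The count over all genes there, 39, was 13 with each comparison on its own arrays and 2 with the replicate block, and ranged from 20 to 58 without 1 array (20 without wild type 3, 58 without wild type 5). After ACAT2 ASO the count over all genes, 102, was 465 with array weights, 17 on its own arrays and 18 with the block, and ranged from 42 to 203 without 1 array. The count of called members there, 1, was 0 when probe sets of a gene were averaged, 0 on its own arrays and 0 with the block, 3 with array weights, and ranged from 0 to 2 without 1 array. It was 2, Ncoa2 and Nr1i3, without wild type 2 and control ASO 4, an alternative chosen after seeing the data. The difference of the 2 effects, with 1 called member, had 0 with centred arrays, the mean of probe sets, every probe set by itself, the trended and robust variance or the block, and 0 to 2 without 1 array. It could not be computed on each comparison's own arrays. The cause of these shifts was not tested.

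For Ncoa2 after ACAT2 ASO the adjusted p was 0.0824 on its own arrays and 0.0550 with the block. Same-numbered arrays did not pair, their deviations correlating from -0.53 to 0.18 (transgenic model) and from -0.52 to 0.51 (ASO model), and 1 array in each correlated best with its own number. Of 195 alternatives of single members, 163 kept direction and side of the threshold, 28 lost the call, 4 gained one and 0 reversed. Only the ASO change and the model difference of Ncoa2 were called to begin with, and all 28 losses were theirs. Results of the other members counted as kept where they stayed uncalled. A processing alternative turned the sign of 11 members in transgenic liver, the largest of them at an absolute change of 0.07, and of 5 after ACAT2 ASO, the largest at 0.13. Low signal limits the 6 members under 4.74.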

Other observations

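Genes with long spans were examined because such genes make up part of those lower after ACAT2 ASO. Of 853 genes spanning over 200 kb (GRCm38.p6), 10 were called lower and 2 higher by limma after ACAT2 ASO, with a median change of 0.01. Over all 17097 genes, 71 were called lower and 31 higher. Among the 38 receptor and coregulator genes 7 spanned over 200 kb. Their changes after ACAT2 ASO ran from -0.21 for Nr3c2 to 0.33 for Ncoa2, with 3 above 0 and 4 below and a median of -0.03. Ncoa2, which spans 235 kb on chromosome 1, was the 1 called, and 0 of the 7 were called lower.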
